A study of Mus musculus with 6 samples.

Results

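The genes described here encode enzymes that write or erase marks on histones and DNA, proteins that read those marks, and the architectural factors CTCF and CTCFL. They were taken from a list of symbols, and no measured value enters the rule. All 58 names were found in the count tables and in the table of RPKM (a level scaled for library size and transcript length), among 23229 gene rows. RNA came from mature sperm of 4-month-old mice of a C57BL/6 transgenic line, HP3.1, and every preparation carried that transgene, which the labels do not describe. The fractions set side by side were sperm nuclei, freed of tails by sonication and spun through sucrose and caesium chloride (2 preparations, nuclei 1 and nuclei 2), and whole sperm (1 preparation), each sequenced in 2 runs that share 1 column. The labels speak of individual mice but do not tie preparations to them, so the spread between the nuclei libraries may be technical. Whole sperm has no replicate.

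Mature sperm carry almost all their DNA on protamines, which replace histones late in spermatid development. That exchange is preceded by histone hyperacetylation and is read by bromodomain proteins, while DNA methylation is set much earlier, in prospermatogonia. Sperm themselves are largely silent in transcription, and their RNAs are generally thought to be held over from spermatids or gained from the epididymal tract.

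The libraries held 5487306 (nuclei 1), 6648848 (nuclei 2) and 8316345 (whole sperm) reads counted on genes and assembled regions. Markers of the labelled cell type were present: all 17 spermatid and sperm markers had counts in every library, and their levels summed to 6035 and 5653 CPM (counts scaled to library size with TMM factors) in nuclei and 3084 CPM in whole sperm. Prm2, the protamine gene assayed by RT-PCR in the extracts, was at 592 and 431 CPM in nuclei, against 319 CPM in whole sperm. Of 12 spermatogonia and spermatocyte markers all had counts, with sums of 392 and 427 CPM in nuclei, against 210 CPM in whole sperm. Epididymal and vas deferens markers were lower in nuclei as a sum, at 2838 and 2848 CPM in nuclei, against 17859 CPM in whole sperm. Of 19 listed, 4 (Crisp1, Abcg2, Cldn8 and Spink10) fell at an edgeR adjusted p under 0.05. Crisp1 and Akr1b7, at 6447 and 5555 CPM in whole sperm, made up most of the whole-sperm sum. Lcn5, Lcn8, Defb20 and Rnase10 were at 0 in every library, and Lcn9, Defb21 and Cst11 had counts in nuclei 1 only. The 9 general epithelial markers, all detected, summed to 129 and 187 CPM in nuclei, against 467 CPM in whole sperm. Leukocyte markers (10 in the tables) summed to 50.7 and 16.9 CPM in nuclei, against 51.8 CPM in whole sperm, and 10 smooth muscle and stroma markers to 168 and 94.8 CPM in nuclei, against 148 CPM in whole sperm, with Des at 0 throughout. Of 9 Sertoli and Leydig markers, Amh, Gata4, Star, Cyp11a1 and Hsd3b1 were at 0 in every library; the sums were 29.2 and 7.04 CPM in nuclei, against 21.5 CPM in whole sperm. The 4 erythrocyte genes in the tables summed to 0 and 0.599 CPM in nuclei, against 0.346 CPM in whole sperm. The part of these other cells in the values below was not tested, and in bulk samples fewer cells of a type and less RNA per cell cannot be told apart.

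Chromatin enzyme and reader transcripts were a small but well detected class. The 58 genes took 0.238% of gene counts in nuclei 1 (exact 95% interval 0.234 to 0.242), 0.361% in nuclei 2 (0.356 to 0.365) and 0.251% in whole sperm (0.248 to 0.255); PCR copies cannot be recognised in the tables, so these intervals describe counting error alone. Among all gene rows the median member stood at percentile 82.3 (nuclei 1), 79.0 (nuclei 2) and 81.6 (whole sperm). Counts of 10 or more were found for 50 members in each nuclei library and for 55 in whole sperm. None of the 58 passed the edgeR quasi-likelihood test at an adjusted p under 0.05, where 20 of all 14397 tested genes did (0.139%, 0.0278% being higher in nuclei and 0.111% lower). At an unadjusted p under 0.05 there were 3 members, Hdac6, Kdm3b and Hdac11, against 5.44% of all tested genes, and DESeq2 called 0 of the 44 members to which it gave an adjusted p, where it called 1.45% of genes higher and 0.537% lower. Its unadjusted p was under 0.05 for 3 of 58 members, against 7.08% of genes. Differences below are therefore given as values, and whether the nuclei libraries both lay on one side of whole sperm is stated beside them.

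Both nuclei libraries lay above whole sperm for 16 of 58 members, against 26.1% of all tested genes, and both lay below it for 21, against 41.2%. Among the 31 members with a mean of at least 20 CPM, 13 lay above (38.3% of all genes of that level) and 11 below (40.0%). These shares are near those of all genes. The median log2 fold change, nuclei over whole sperm, was -0.11 over the members and -0.04 over all tested genes. Between the nuclei libraries, 1 of these 31 members, Tet2, was over 4-fold apart (after adding 0.5 CPM), where 13.8% of genes at that level were. When libraries were scaled by 23 spike-in RNAs, assuming equal amounts were added, the median of all genes shifted to -1.48 and that of the members to -1.54. This put 9 members above 0 and 49 below, and it called 0 members higher (0.00695% of genes) and 2 lower (3.66%). The share of all genes above 0 with that scaling is not given here. Counts of these spike-ins equalled 10.7% and 11.6% of gene and region counts in nuclei and 4.38% in whole sperm. Whole sperm also had 2206285 counts of 69 other spike-ins, which the scaling left out. Whether equal amounts were added was not tested.

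**Figure D1:**
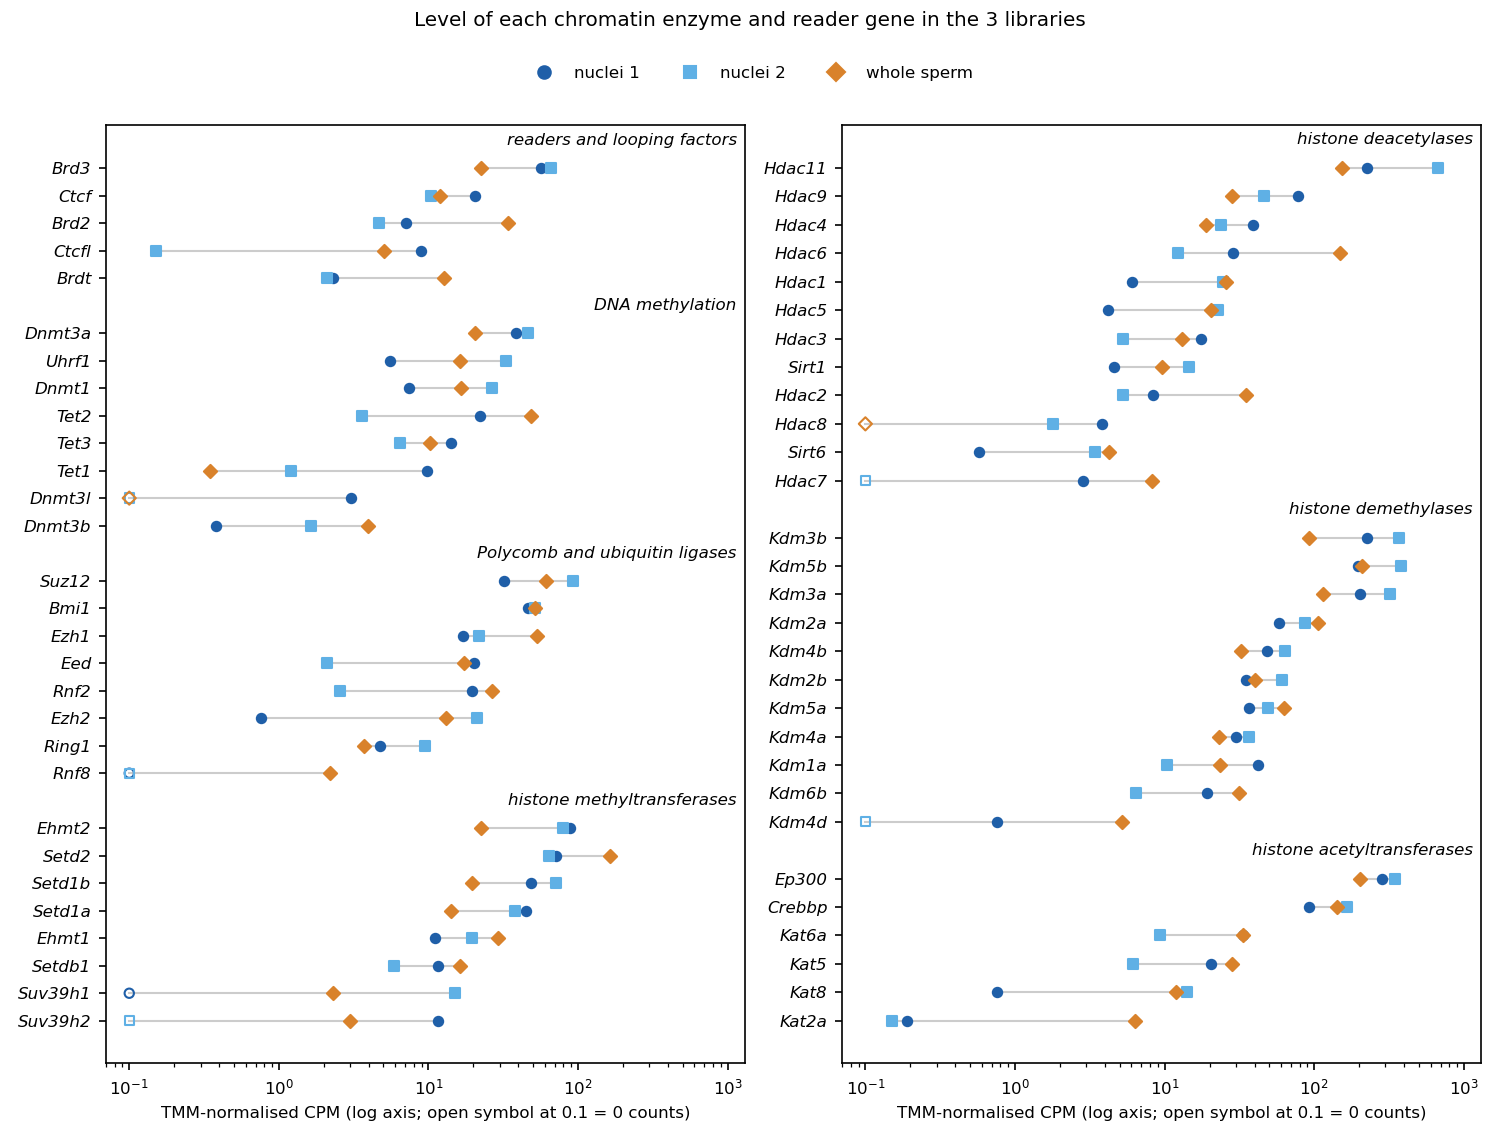
Level of each of the 58 genes in nuclei 1, nuclei 2 and whole sperm, in CPM on a log axis, grouped by role and ordered by the nuclei mean; open symbols at the left mark 0 counts. Hdac11, Kdm5b, Kdm3a, Kdm3b and Ep300 stand at the right, and wide gaps between the nuclei libraries are seen for Suv39h1, Suv39h2, Ezh2, Ctcfl and Kat8.

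A handful of genes carried much of the signal. Hdac11, Kdm5b, Kdm3a, Kdm3b and Ep300, which had the most counts of all members in each nuclei library, took 47.9% (interval 47.0 to 48.7) and 60.5% (59.9 to 61.1) of the members' counts in nuclei and 33.1% (32.5 to 33.8) in whole sperm. They were picked for their nuclei counts after these were seen, so the difference is a description. In whole sperm the 5 members with the most counts were Kdm5b, Ep300, Setd2, Hdac11 and Hdac6. Counts favour long transcripts, and RPKM, which divides by length, allows levels of different genes to be compared. Hdac11 had the highest RPKM of all members in every library, at 35.8 and 141 RPKM in nuclei and 43.9 RPKM in whole sperm. Kdm3a came next in both nuclei libraries, at 16.8 and 29.9 RPKM, and was at 16.2 RPKM in whole sperm. Kdm5b was at 11.3 and 28.2 RPKM in nuclei and 18.6 RPKM in whole sperm, Kdm3b at 11.4 and 24.9 RPKM in nuclei and 8.41 RPKM in whole sperm, and Ep300 at 12.8 and 18.7 RPKM in nuclei and 15.2 RPKM in whole sperm. Kdm5b, Kdm3b and Ep300 stood in a different order in each nuclei library, so their levels did not differ from each other beyond that spread, while Kdm3a lay above them in both. Hdac6 stood between them and Hdac11 in whole sperm only, at 23.8 RPKM, against 3.17 and 1.36 RPKM in nuclei.

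**Figure D2:**
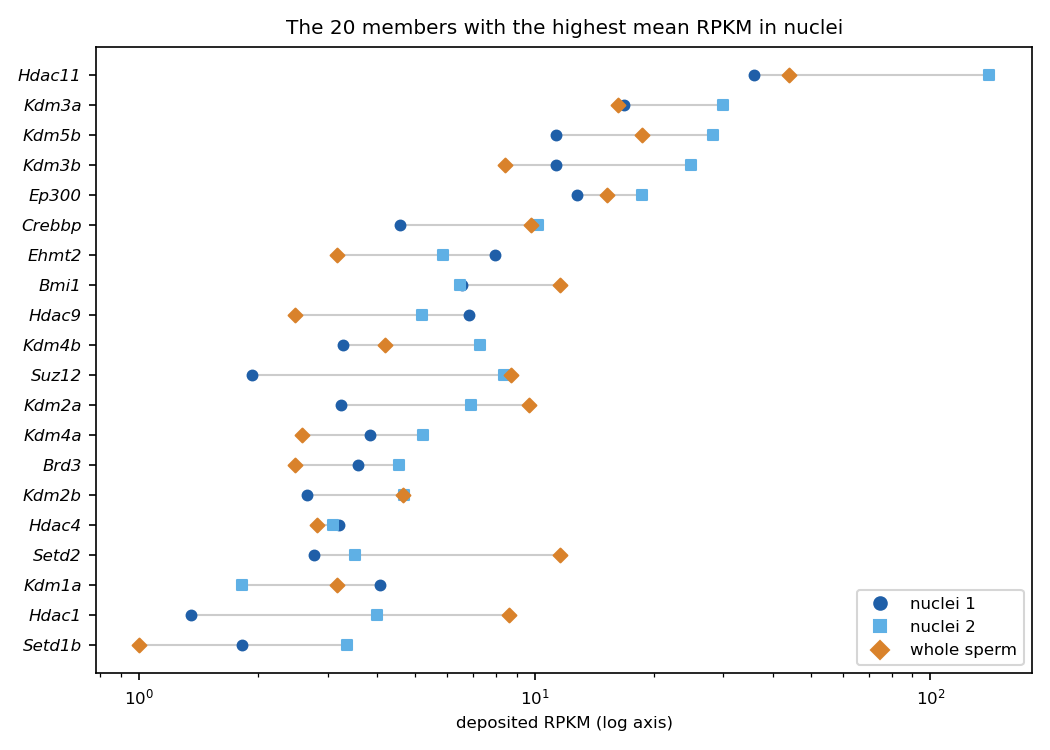
Deposited RPKM, on a log axis, of the 20 members with the highest mean in nuclei, with 1 point per library. Hdac11 is highest in each library at 35.8 and 141 RPKM in nuclei and 43.9 RPKM in whole sperm, and for Kdm3a, Kdm5b, Kdm3b and Ep300 nuclei 2 lies right of nuclei 1.

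Histone deacetylases remove acetyl groups from lysines and fall into classes that differ in cell location and partners. Of 12 members, 4 lay above whole sperm in both nuclei libraries, 5 lay below it and 3 lay on either side, with a median log2 fold change of -0.41. The sole class IV member, Hdac11 (build mm10, chr6:91156665-91174692), had 1188 and 4484 counts in nuclei, against 1322 counts in whole sperm, or 226 and 672 CPM in nuclei, against 153 CPM in whole sperm. Both nuclei libraries lay above whole sperm, but nuclei 2 alone accounted for most of the distance (log2 2.14 from nuclei 2 and 0.63 from nuclei 1, with a fitted 1.56 ± 0.79 SE, edgeR adjusted p = 0.844, and 0.11 with spike-in scaling). By RPKM the nuclei libraries lay on either side of whole sperm. Hdac11 shares 594 exonic bases with Gm44002 on the opposite strand, which was not counted. Hdac6 (chrX:7930120-7947889), a class IIb enzyme known for deacetylating tubulin in the cytoplasm, was the member furthest below whole sperm among those of at least 20 CPM, at 28.8 and 12.3 CPM in nuclei, against 150 CPM in whole sperm. Its fitted log2 fold change was -2.87 ± 0.90 SE (edgeR adjusted p = 0.229), a mean 7.31-fold lower in nuclei. With spike-in scaling it passed the threshold (log2 -4.30, or -2.82 relative to the median of all genes, adjusted p = 0.000126), where 3.66% of all genes were called lower.

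Among class I deacetylases, Hdac2 was at 8.39 and 5.24 CPM in nuclei, against 35.1 CPM in whole sperm (log2 -2.36 ± 1.92 SE). Hdac1 was at 6.10 and 24.4 CPM in nuclei, against 25.8 CPM in whole sperm, and its counts are uncertain because transcripts of Gm10093 match it at 99.4% identity over 1444 bases. Hdac3 was at 17.5 and 5.24 CPM in nuclei, against 13.2 CPM in whole sperm, on either side. Hdac8 had 20 and 12 counts in nuclei, against 0 in whole sperm. That is 8.10-fold more in nuclei when whole sperm is set at a floor of 3 counts per library, a value without error (fitted log2 7.28 ± 7.93 SE, edgeR adjusted p = 0.909). The class IIa genes, whose products shuttle between nucleus and cytoplasm, did not share a side. Hdac9 was at 78.3 and 46.4 CPM in nuclei, against 28.2 CPM in whole sperm. Hdac4 had 206 and 159 counts in nuclei, against 165 counts in whole sperm, the deepest library. Both lay above whole sperm by CPM and below it with spike-in scaling (log2 -0.28 and -0.70). Hdac7 had 15 and 0 counts in nuclei, against 72 in whole sperm, and Hdac5 was uneven at 4.19 and 22.6 CPM in nuclei, against 20.5 CPM in whole sperm. The sirtuins, NAD-dependent deacetylases, were scarce: Sirt1 was at 4.57 and 14.7 CPM in nuclei, against 9.58 CPM in whole sperm, and Sirt6 had 3 and 23 counts in nuclei, against 37 in whole sperm.

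Demethylases of histone H3 held 3 of the 5 most counted genes in nuclei. Of 11 members, 4 lay above whole sperm in both nuclei libraries and 4 below, with a median log2 fold change of 0.26. Kdm3a, an H3K9 demethylase that mouse spermatids use to open protamine and transition protein genes, had 1059 and 2150 counts in nuclei, against 991 in whole sperm. On the CPM scale it was at 202 and 322 in nuclei and 114 in whole sperm (log2 1.20 ± 0.78 SE, edgeR adjusted p = 0.909), and both nuclei libraries lay above. Its close relative Kdm3b was at 226 and 369 CPM in nuclei, against 92.3 CPM in whole sperm, again without overlap (3.22-fold, log2 1.69 ± 0.80 SE, edgeR adjusted p = 0.755). Kdm3b shares 3468 exonic bases with Gm26538 on the opposite strand, which was not counted. Kdm5b, which removes H3K4 methylation, was at 197 and 381 CPM in nuclei, against 210 CPM in whole sperm, so whole sperm lay between the nuclei libraries. Spike-in scaling left Kdm3b slightly above whole sperm (log2 0.25) and put Kdm3a (-0.24) and Kdm5b (-0.98) below it, all above the shifted median of -1.48.

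The other demethylases were lower in level and mixed in direction. Kdm4b, which acts on H3K9 and H3K36, was at 48.4 and 63.7 CPM in nuclei, against 32.5 CPM in whole sperm. Kdm4a, of the same specificity, was at 29.9 and 36.7 CPM in nuclei, against 23.2 CPM in whole sperm. Both lay above whole sperm by CPM and below it with spike-in scaling (log2 -0.65 and -0.91). Kdm4d, the testis-enriched member of that family, had 4 and 0 counts in nuclei, against 45 in whole sperm. Kdm2a and Kdm5a lay below whole sperm in both nuclei libraries, Kdm2a at 58.1 and 87.2 CPM in nuclei, against 105 CPM in whole sperm and Kdm5a at 36.6 and 49.4 CPM in nuclei, against 62.5 CPM in whole sperm. Kdm6b, an H3K27 demethylase, was at 19.3 and 6.44 CPM in nuclei, against 31.4 CPM in whole sperm. Kdm1a, the H3K4 demethylase LSD1, was uneven at 42.1 and 10.3 CPM in nuclei, against 23.3 CPM in whole sperm. Kdm2b, an H3K36 demethylase that also recruits Polycomb complexes to CpG islands, was at 34.9 and 61.0 CPM in nuclei, against 40.0 CPM in whole sperm; the non-member Gm12397 carries 615 identical bases, so its counts are uncertain.

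Histone methyltransferases split into genes above and genes below whole sperm, 3 each of 8, with a median log2 fold change of 1.25. That median rests in part on Suv39h1 (1.71) and Suv39h2 (0.95), each at 0 counts in 1 nuclei library. From nuclei 1 alone the median was 0.47, and from nuclei 2 alone it was 0.41. Ehmt2 (chr17:34898469-34914052), which encodes the H3K9 methyltransferase G9a, had 463 and 529 counts in nuclei, against 195 in whole sperm. Its levels of 88.3 and 79.3 CPM in nuclei were close to each other and both above the 22.5 CPM of whole sperm. The fitted log2 fold change of 1.90 ± 1.02 SE (3.72-fold, edgeR adjusted p = 0.908) was the highest of the members of at least 20 CPM. Its partner Ehmt1, which forms a heterodimer with G9a, was at 11.1 and 19.5 CPM in nuclei, against 29.3 CPM in whole sperm, on the other side. The H3K4 methyltransferase gene Setd1a was at 45.2 and 38.2 CPM in nuclei, against 14.2 CPM in whole sperm (log2 1.55 ± 1.34 SE, edgeR adjusted p = 0.909). Setd1a shares 3523 exonic bases with Gm49388 on the same strand, which was not counted, so Setd1a counts are uncertain. Its paralogue Setd1b was at 48.4 and 70.9 CPM in nuclei, against 19.5 CPM in whole sperm (log2 1.61 ± 1.12 SE, edgeR adjusted p = 0.909). Both were above whole sperm in both nuclei libraries. With spike-in scaling Ehmt2, Setd1a and Setd1b kept positive values of 0.46, 0.12 and 0.17.

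Setd2, whose product writes H3K36 trimethylation and is required in mouse spermatids, went the opposite way. It had 376 and 427 counts in nuclei, against 1415 in whole sperm, or 71.7 and 64.0 CPM in nuclei, against 163 CPM in whole sperm (log2 -1.27 ± 0.79 SE, edgeR adjusted p = 0.909). The nuclei libraries were close to each other and apart from whole sperm. It was the second member that spike-in scaling called lower (log2 -2.70, or -1.22 relative to the median of all genes, edgeR adjusted p = 0.0187). That scaling called 3.66% of all genes lower. Setdb1, which encodes an H3K9 methylating enzyme, was at 11.6 and 5.84 CPM in nuclei, against 16.3 CPM in whole sperm.

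The Suv39h genes, whose products trimethylate H3K9 in pericentric heterochromatin, gave contrary readings in the nuclei preparations. Suv39h1 had 0 and 101 counts in nuclei, against 20 in whole sperm. Suv39h2, the form enriched in mouse testis, had 61 and 0 counts in nuclei, against 26 in whole sperm, and it shares 357 exonic bases with Dclre1c on the opposite strand (185 and 106 counts in nuclei, 109 in whole sperm). Neither gene can be placed by these libraries.

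Acetyltransferases were led by the coactivators Ep300 and Crebbp. Of 6 members, 1 lay above whole sperm in both nuclei libraries, 2 lay below and 3 on either side, with a median log2 fold change of -0.66. Ep300 was at 285 and 347 CPM in nuclei, against 204 CPM in whole sperm (log2 0.63 ± 0.75 SE, edgeR adjusted p = 0.909), and Crebbp at 92.8 and 165 CPM in nuclei, against 142 CPM in whole sperm. Ep300 lay above whole sperm in both nuclei libraries, though not with spike-in scaling (log2 -0.81), and Crebbp did not. By RPKM whole sperm lay between the nuclei libraries for both genes. Kat5, the H4 acetyltransferase Tip60, was at 20.6 and 6.14 CPM in nuclei, against 28.0 CPM in whole sperm (log2 -1.07 ± 1.78 SE), and it shares 426 exonic bases with the opposite-strand gene Rnaseh2c. Kat8, which acetylates H4K16, had 4 and 95 counts in nuclei, against 104 in whole sperm, and Kat6a was at 33.5 and 9.29 CPM in nuclei, against 33.2 CPM in whole sperm. Kat2a, the H3 acetyltransferase GCN5, had 1 count in each nuclei library and 55 in whole sperm, or 0.191 and 0.150 CPM in nuclei, against 6.35 CPM in whole sperm; on so few nuclei counts the fitted value of -5.08 carried an SE of 5.73.

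**Figure D3:**
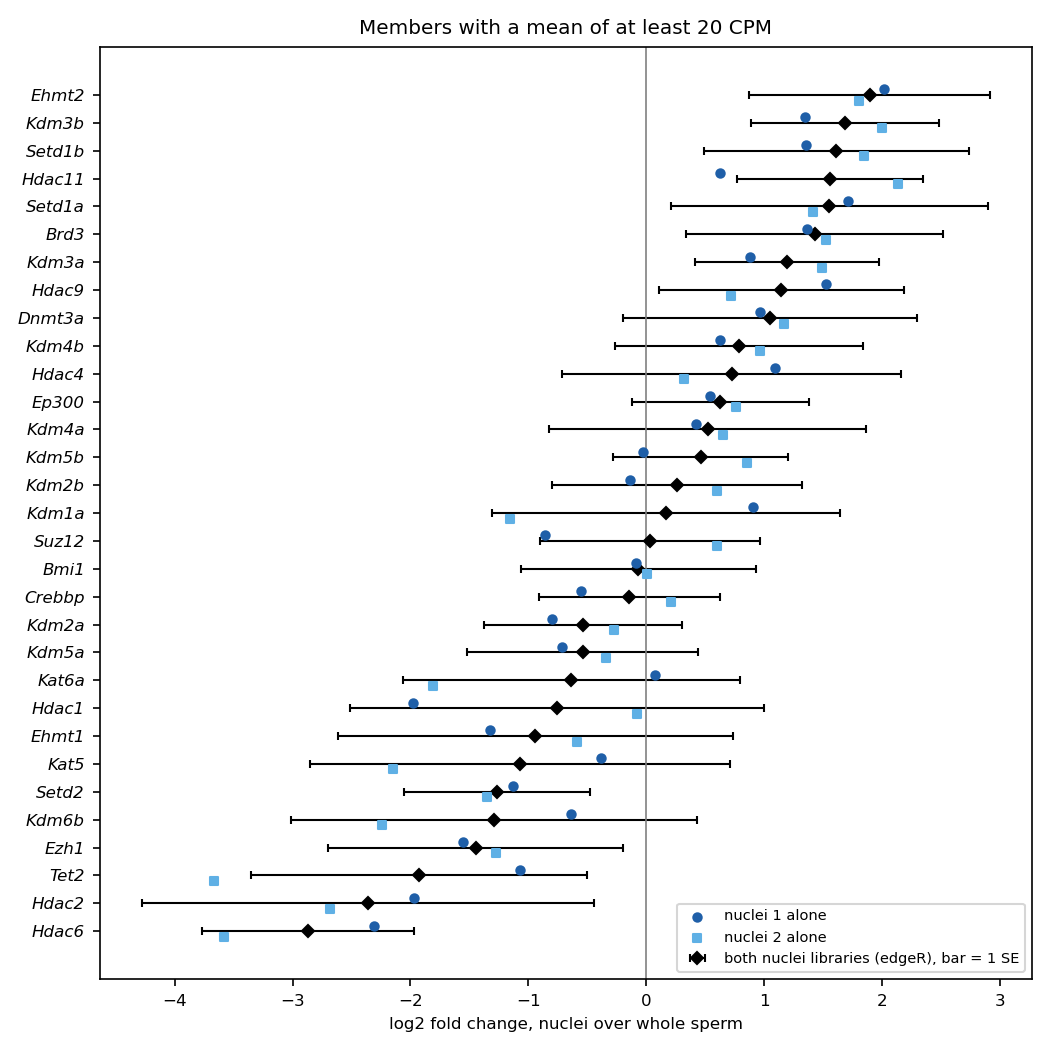
Fitted log2 fold change, nuclei over whole sperm, with 1 SE from edgeR (diamonds) for the 31 members of at least 20 CPM, and the value from each nuclei library alone. Ehmt2 is at the top at 1.90 and Hdac6 at the bottom at -2.87, and the points of the nuclei libraries lie far apart for Hdac11, Kdm1a and Tet2.

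BET family proteins read acetylated histones. Of the 5 readers and looping factors, 1 lay above whole sperm in both nuclei libraries, 2 lay below and 2 on either side. Brd3 was at 56.2 and 65.6 CPM in nuclei, against 22.6 CPM in whole sperm (log2 1.43 ± 1.09 SE, edgeR adjusted p = 0.909), with the nuclei libraries close and both above, at -0.01 with spike-in scaling. Its relative Brd2 was at 7.05 and 4.64 CPM in nuclei, against 33.8 CPM in whole sperm (log2 -2.53 ± 2.01 SE). On the opposite strand Brd2 shares 360 exonic bases with H2-DMa (0 and 0 counts in nuclei, 3 in whole sperm). It also shares 405 with CR974462.3 on that strand, which was not counted. Brdt, the testis form that mouse spermatids need to compact acetylated chromatin, had 12 and 14 counts in nuclei, against 110 in whole sperm (log2 -2.52 ± 4.02 SE). The insulator protein gene Ctcf was at 20.4 and 10.3 CPM in nuclei, against 11.9 CPM in whole sperm, and its testis paralogue Ctcfl had 47 and 1 counts in nuclei, against 44 in whole sperm.

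Genes of DNA methylation were mostly low. Of 8, 2 lay above whole sperm in both nuclei libraries, 2 below and 4 on either side, with a median log2 fold change of 0.15. Nuclei 1 alone gave a median of -0.28 and nuclei 2 alone 0.69. The de novo methyltransferase gene Dnmt3a was at 38.7 and 46.6 CPM in nuclei, against 20.5 CPM in whole sperm (log2 1.05 ± 1.25 SE, edgeR adjusted p = 0.909), both nuclei libraries above, a side that spike-in scaling turned (-0.38). Dnmt3b, the other de novo enzyme, had 2 and 11 counts in nuclei, against 34 in whole sperm. Dnmt3l, their catalytically inactive cofactor in germ cells, had 16 and 0 counts in nuclei, against 0 in whole sperm, and a gene on the opposite strand, Aire, shares 67 of its exonic bases. Dnmt1, which copies methylation after replication, was at 7.43 and 26.8 CPM in nuclei, against 16.5 CPM in whole sperm. Uhrf1, which recruits it, was at 5.53 and 32.8 CPM in nuclei, against 16.3 CPM in whole sperm. Both were lower in nuclei 1 than in nuclei 2. Uhrf1 counts are uncertain, since Gm5648 matches 1590 bases of it at 98.3%. Of the TET dioxygenases, which oxidise methylated cytosine, Tet2 was at 22.1 and 3.60 CPM in nuclei, against 48.8 CPM in whole sperm (log2 -1.93 ± 1.42 SE), Tet3 at 14.1 and 6.44 CPM in nuclei, against 10.3 CPM in whole sperm, and Tet1 had 51 and 8 counts in nuclei, against 3 in whole sperm.

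Polycomb repressive complex 2 trimethylates H3K27 and complex 1 ubiquitinates H2A. Of 8 genes of this group, 1 lay above whole sperm in both nuclei libraries, 3 below and 4 on either side, with a median log2 fold change of -0.44. The scaffold gene Suz12 was at 32.2 and 92.7 CPM in nuclei, against 61.0 CPM in whole sperm, on either side. The catalytic genes Ezh1 and Ezh2 differed: Ezh1 was at 17.2 and 21.7 CPM in nuclei, against 53.0 CPM in whole sperm (log2 -1.45 ± 1.25 SE), while Ezh2 had 4 and 141 counts in nuclei, against 113 in whole sperm. Eed, which binds the mark, had 106 and 14 counts in nuclei, against 150 in whole sperm, so the 3 core subunits Ezh2, Suz12 and Eed were not higher in the same nuclei preparation. Of complex 1, Bmi1 was nearly level at 46.5 and 51.5 CPM in nuclei, against 51.4 CPM in whole sperm, with counts that are uncertain because Gm5946 matches it at 97.0% over 2658 bases. The ligase gene Rnf2 had 102 and 17 counts in nuclei, against 231 in whole sperm. Its paralogue Ring1 had 25 and 63 counts in nuclei, against 32 in whole sperm. Rnf8, a ubiquitin ligase of histones at DNA breaks, had 0 counts in both nuclei libraries and 19 in whole sperm. That is 4.29-fold less in nuclei when these are set at the floor of 3 counts per library, a value without error (fitted log2 -6.92 ± 6.36 SE). Rnf8 shares 1542 exonic bases with Gm28043 on the same strand, which was not counted, so its counts are uncertain.

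Ratios between related genes within 1 library do not depend on how libraries are scaled. For 17 pairs of paralogues among the members, the share of the pair's counts taken by one gene was computed in each library; the pairs and their order were set with results known, so the direction of a share is no finding. In 12 of 17 pairs both nuclei values lay on one side of whole sperm; single genes did so by CPM in 67.3% of all those tested, so the count of pairs is near that background. In 9 of these the exact 95% intervals of counting error were apart. How often this holds for other gene pairs was not computed. Such intervals leave out the spread between preparations and are narrow at high counts, so the 9 are no finding about these genes. Ehmt2 took 88.9% (interval 85.8 to 91.4) and 80.3% (77.0 to 83.2) of Ehmt counts in nuclei and 43.4% (38.8 to 48.2) in whole sperm. Brd3 took 88.9% (85.0 to 92.0) and 93.4% (90.7 to 95.5) of Brd3 and Brd2 counts in nuclei and 40.1% (35.7 to 44.6) in whole sperm. Shares of counts do not correct for transcript length. By RPKM, Brd3 took 86.0% and 93.9% of its pair in nuclei and 35.1% in whole sperm, and Ehmt2 took 93.1% and 77.8% in nuclei and 52.1% in whole sperm. On that scale Brd3 led its pair in the nuclei libraries and trailed Brd2 in whole sperm, whereas Ehmt2 led Ehmt1 in every library.

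Smaller differences were seen in pairs with deep counts. Ep300 took 75.4% and 67.8% of Ep300 and Crebbp counts in nuclei and 58.9% in whole sperm, and Kdm5b took 84.3% and 88.5% of Kdm5b and Kdm5a counts in nuclei and 77.0% in whole sperm. Kdm3b took 52.8% and 53.4% of Kdm3b and Kdm3a counts in nuclei and 44.7% in whole sperm, while by RPKM Kdm3a led in every library. For all 3 pairs the counting intervals of the fractions were apart, though whole sperm has no replicate to show its own spread. RPKM placed 11 of the 12 pairs on the same side and turned Kdm4b with Kdm4a. For Ezh2 with Ezh1, Setd1b with Setd1a, Suv39h2 with Suv39h1, Ctcfl with Ctcf and Hdac1 with Hdac2, whole sperm lay between the nuclei libraries.

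**Figure D4:**
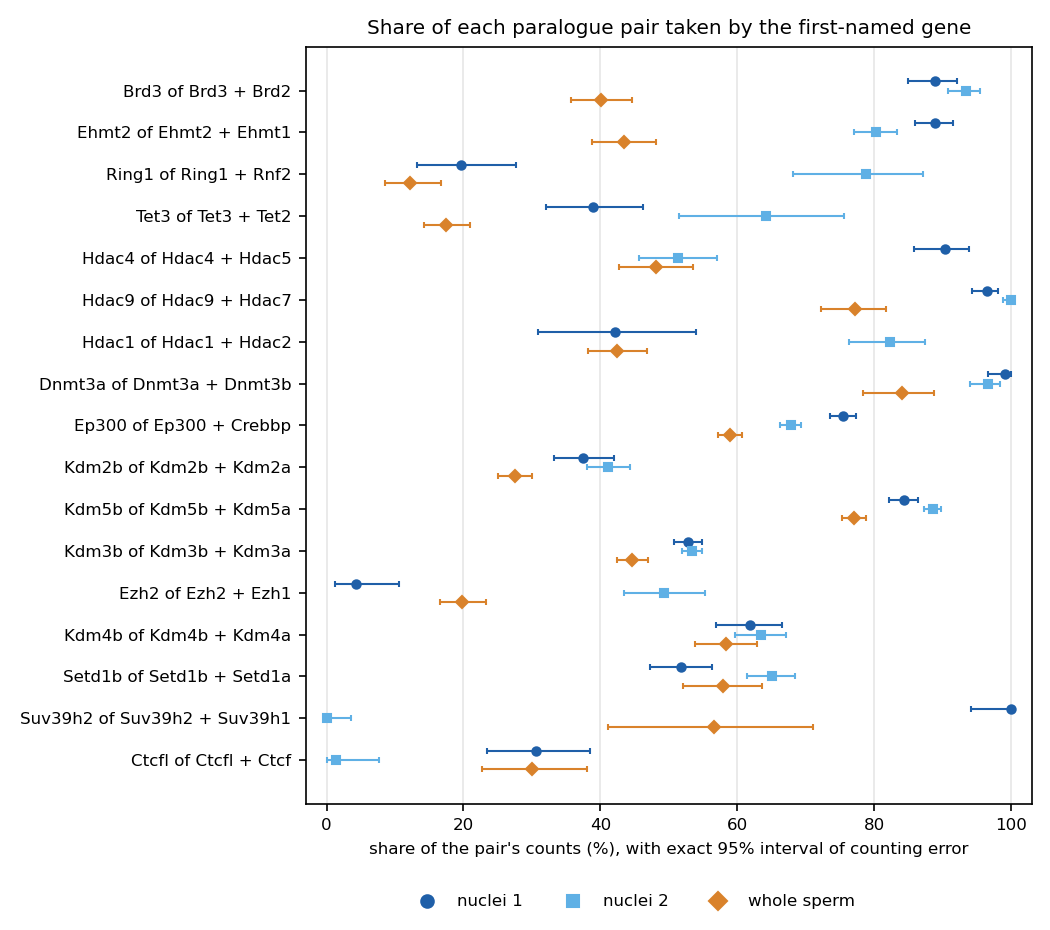
Share of each paralogue pair's counts taken by the first-named gene in nuclei 1, nuclei 2 and whole sperm, with exact 95% intervals of counting error. Brd3 and Ehmt2 take over 80% of their pairs in both nuclei libraries and 40.1% and 43.4% in whole sperm, while Suv39h2 is at 100% and 0% in the nuclei libraries.

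Promoters are shown for the Ehmt and Brd pairs because these pairs had the widest gap in share of counts between whole sperm and the nearer nuclei library. The sequences are the 250 bases before the RefSeq start site (build GRCm38.p6, the assembly of mm10), on the strand of the gene, from chr17:34898224-34898473 (plus strand) for Ehmt2, chr2:24919610-24919859 (minus) for Ehmt1, chr2:27475399-27475648 (minus) for Brd3 and chr17:34122608-34122857 (minus) for Brd2. The Brd3 window lies inside that gene's annotated span (chr2:27445579-27507662), away from its upstream end. Windows of Ehmt2, Ehmt1 and Brd2 lie at the upstream ends of their spans. Capitals mark the GC box GGGCGG on either strand; the cyclic AMP response element core TGACG, the site of the spermatid activator CREM, and the TATA box TATAAA were searched on both strands too and occur in none of the 4 windows.
Ehmt2: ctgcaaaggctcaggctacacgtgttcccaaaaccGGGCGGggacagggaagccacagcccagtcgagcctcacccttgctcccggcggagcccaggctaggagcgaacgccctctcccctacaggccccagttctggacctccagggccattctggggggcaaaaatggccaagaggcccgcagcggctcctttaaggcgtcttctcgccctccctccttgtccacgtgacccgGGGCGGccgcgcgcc
Ehmt1: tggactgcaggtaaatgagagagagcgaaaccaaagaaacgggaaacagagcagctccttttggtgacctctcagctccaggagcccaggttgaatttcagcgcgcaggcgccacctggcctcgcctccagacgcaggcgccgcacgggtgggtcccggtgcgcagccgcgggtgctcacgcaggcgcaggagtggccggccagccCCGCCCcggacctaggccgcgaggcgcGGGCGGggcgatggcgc
Brd3: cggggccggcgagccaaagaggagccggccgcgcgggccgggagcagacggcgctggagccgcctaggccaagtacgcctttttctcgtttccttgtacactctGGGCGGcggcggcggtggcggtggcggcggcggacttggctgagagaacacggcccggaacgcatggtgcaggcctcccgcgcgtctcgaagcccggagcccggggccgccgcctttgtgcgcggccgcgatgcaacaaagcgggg
Brd2: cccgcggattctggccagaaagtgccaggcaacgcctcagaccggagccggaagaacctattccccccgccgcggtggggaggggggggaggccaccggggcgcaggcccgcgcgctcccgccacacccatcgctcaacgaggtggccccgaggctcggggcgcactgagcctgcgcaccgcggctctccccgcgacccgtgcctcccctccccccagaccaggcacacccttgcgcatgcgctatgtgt

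All 4 windows were rich in CpG, with 18 CpG dinucleotides for Ehmt2, 26 for Ehmt1, 37 for Brd3 and 27 for Brd2, against a median of 6 over all 32841 windows in the RefSeq table. The GC box was in the windows of Ehmt2, Ehmt1 and Brd3 and not in that of Brd2, so it did not separate the genes above whole sperm from those below. RefSeq held 71 windows for 48 of the members. These had a median of 18 CpG, and 64.8% held the GC box, against 32.7% of all windows. TGACG was in 26.8% of the members' windows and 17.8% of all windows, and TATAAA in 2.82% of the members' windows and 12.4% of all windows. A match in such a window is a description of its letters. None of the 2381 assembled transcript regions listed by the authors overlapped any of the 58 gene spans. The share of all genes without such an overlap was not computed, so this is no trait of the members.

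The deposited whole-sperm column that the authors adjusted equals the whole-sperm count less the mean nuclei count, never under 0. It was set to 0 for 17 of the 56 members with a whole-sperm count, against 32.5% of all genes with one. Among these were Brd3, Dnmt3a, Hdac4, Hdac9, Hdac11, Kdm3a, Kdm3b, Kdm4a, Kdm4b, Setd1a, Setd1b, Ehmt2 and Ep300. Over the members, the adjusted scores summed to 34.2% of whole-sperm counts, against 40.3% over all genes. Kdm5b kept 29 of 1817 counts, whereas Hdac6 kept 1184 of 1300, Setd2 1014 of 1415, Tet2 353 of 423 and Hdac2 265 of 304. The column repeats the comparison above in another form, since it is made from the same counts.

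By RPKM no member passed limma on log2(RPKM + 0.1), and 0 of 17430 genes did (0.0%), with 6 members and 14.5% of genes at an unadjusted p under 0.05. Both nuclei libraries lay above whole sperm in RPKM for 13 members (16.9% of genes) and below for 32 (50.0%), and the median difference on the log2(RPKM + 0.1) scale was -0.94 over the members, -0.67 over these 17430 genes and -0.91 over the 14397 genes that passed the filter on counts. Of the 37 members on one side by counts, 34 were on the same side by RPKM and 0 on the opposite one. Hdac11, Kdm4b and Ep300 were above whole sperm by CPM and on either side of it by RPKM.

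Other writers, erasers and readers of chromatin marks, 99 tested genes listed by textbook role, were likewise mixed in direction. The edgeR test called 0 of them, against 0.139% of all genes, and 6 had an unadjusted p under 0.05. Both nuclei libraries lay above whole sperm for 29 (26.1% of all genes) and below for 47 (41.2%), with a median log2 fold change of -0.32. The most counted was the bromodomain gene Brwd1, at 674 and 1218 CPM in nuclei, against 562 CPM in whole sperm. The chromatin remodelling genes followed, Baz1a at 682 and 1058 CPM in nuclei, against 562 CPM in whole sperm, and Baz2a at 411 and 943 CPM in nuclei, against 309 CPM in whole sperm. All 3 lay above whole sperm in both nuclei libraries. Among those with a mean of at least 20 CPM, highest in fold were L3mbtl2, a Polycomb-associated reader, at 19.1 and 58.6 CPM in nuclei, against 4.50 CPM in whole sperm, Brpf3 at 638 and 557 CPM in nuclei, against 172 CPM in whole sperm (edgeR adjusted p = 0.672) and Brd9 at 75.7 and 62.6 CPM in nuclei, against 20.1 CPM in whole sperm. Furthest below at that level were the lysine methyltransferase gene Setd7 at 7.43 and 1.50 CPM in nuclei, against 58.0 CPM in whole sperm (log2 -3.70 ± 1.56 SE, adjusted p = 0.605), the acetyltransferase gene Kat2b at 5.34 and 7.19 CPM in nuclei, against 34.3 CPM in whole sperm, and the H3K36 methyltransferase gene Whsc1l1 at 10.9 and 6.29 CPM in nuclei, against 37.8 CPM in whole sperm.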

How the data were processed

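RNA-seq of sperm nuclei and whole sperm was analysed from the authors' deposited tables. The count columns hold whole reads per gene or assembled region, deposited without normalization, and the deposited RPKM column of each preparation is scaled for library size and transcript length; the role of each tool is not given in the sources used here, but the submitters' processing notes name build mm10, HTSeq, DESeq2, bedtools, TopHat2 2.0.12, CASAVA 1.8.2, SAMtools 0.1.19 and Cufflinks 2.1.1. The adjusted whole-sperm column was treated as a score: all 25610 rows of the deposited table equalled the stated difference within 0.5 counts. Strand setting is not given, so opposite-strand genes that share exons cannot be told apart. For 12 members such a gene was itself counted. Other members share exons with opposite-strand genes that were not counted, among them Kdm3b (3468 bases, Gm26538), Hdac4 (3536, Gm26720), Suv39h1 (767, Gm14820) and Hdac11 (594, Gm44002). Whether counts of these members hold reads of those genes was not tested.

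Spike-ins, unassigned and ambiguous reads (34.4% and 1.97% of the whole-sperm file) stayed out of library sizes. The test was edgeR 4.0.16 (R 4.3.3), quasi-likelihood, TMM, filterByExpr, nuclei over whole sperm, adjusted by Benjamini-Hochberg over all features; all 58 members passed the filter. With 1 residual degree of freedom, single whole-sperm data were taken to be as variable as nuclei data. SEs were derived from the F statistic and rest on a spread pooled over genes (biological coefficient of variation 1.30). An exact permutation over 3 libraries cannot go below 0.333 one-sided. Values from 1 nuclei library are log2 CPM differences without a test. RPKM used limma 3.58.1; DESeq2 1.42.0 was an alternative. Tests were tried on simulated data. Near-identical copies are GENCODE vM21 transcripts of other genes matching at 95% or more over at least 300 bases.

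Named genes were the 12 members with the highest mean, the 6 largest log2 differences in each direction and between nuclei libraries at 20 CPM or more, and those with textbook germ-line roles; other members are named for their family, after their values were seen. Of the other chromatin genes, the 3 highest and, at 20 CPM or more, the 3 largest differences each way were named. The members and lists were chosen with earlier results of these data known.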

Additional observations from a re-analysis of the deposited data

Results flagged for a closer look

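Reads beyond those compared were held in the whole-sperm file, above the limit that a count of 0 allows: 5896320 fell outside any feature and 336963 were ambiguous between features. It also listed 2206285 counts of 69 spike-ins, which are not among the 23 shared with the nuclei tables. How many of the reads outside features came from the genes described here was not tested.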

How the results depend on the processing

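No member passed under DESeq2 size factors, library size alone, no low-count filter, the minimum mean of 10 CPM (edgeR, 2 of 42 at an unadjusted p under 0.05), DESeq2, or without the 10 most abundant features. Spike-in scaling called 2 of 58 lower (Hdac6 and Setd2), against 3.66% of all genes. The adjusted whole-sperm column, which is circular, called 15 of 58 higher, against 2571 of 14320 genes. Over all 14397 genes, against 4 higher and 16 lower, library size alone called 2 higher and spike-in scaling 1 higher and 527 lower. The minimum mean of 10 CPM called 0 and 0 (edgeR, 615 of 6737 at an unadjusted p under 0.05). The adjusted column called 2571 and 38 of 14320 genes, and DESeq2 108 and 40 of 7443. The members' median (-0.11, all genes -0.04) was -1.54 with spike-in scaling (all genes -1.48) and 1.87 with the adjusted column (all genes 1.91). It was -0.082 without nuclei replicate 1 (all genes -0.53) and -0.39 without nuclei replicate 2 (all genes -0.20). In RPKM it was -0.47 with a pseudocount of 1 (all genes -0.22) and -0.94 with 0.1 (all genes -0.67).

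Sign changes are listed for the 33 members named by the rule. They were seen for Suz12 (-0.038) and Sirt1 (-0.062) with library size alone, and for Suz12 (-0.089) at the minimum mean of 10 CPM. Spike-in scaling, by its shift of all genes, turned 19 of all 58 members, among the 33 Brd3 (-0.0066), Dnmt3a (-0.38), Suz12 (-1.41), Sirt1 (-1.43), Kdm1a (-1.25), Kdm3a (-0.24), Kdm5b (-0.98), Suv39h2 (-0.46) and Ep300 (-0.81). The share of all genes so turned is not given here, so the 19 are no trait of the members. The adjusted column turned Hdac1 (0.51), Hdac3 (1.40), Kdm2a (0.87), Kdm5a (0.86), Kat6a (0.59), Kat8 (0.69), Crebbp (1.79) and Ctcfl (1.42). Of all 58 members, 20 had opposite signs in nuclei 1 and nuclei 2 alone; among the 33, the log2 range without 1 nuclei replicate was -0.86 to 0.60 for Suz12, -1.29 to 0.46 for Hdac3, -0.96 to 0.60 for Sirt1, -1.15 to 0.90 for Kdm1a, -0.030 to 0.86 for Kdm5b, -3.64 to 1.91 for Suv39h2, -1.81 to 0.072 for Kat6a, -3.50 to 0.24 for Kat8, -0.56 to 0.21 for Crebbp and -3.70 to 0.84 for Ctcfl; the cause was not tested. No paired analysis was possible because whole sperm has 1 preparation.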
